A study of Mus musculus with 4 samples.

Results

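Plasma cells of the IgA class were examined in single-cell RNA sequencing of the mouse mid-colon. They were chosen by measured values, the counts of antibody transcripts. A cell was taken when Igkc, Iglc1 to Iglc3, Igha, Ighm, the 4 Ighg genes and Jchain together held at least 15% of its unique molecular identifiers (UMIs, the counted molecules). It also had no Ms4a1 UMI and fewer than 2 Epcam UMIs. Its Igha UMIs were above its Ighm UMIs and also above the sum of its UMIs of all Ighg genes. This gave 1446 of 44356 filtered cells. The libraries came from mice aged 7 weeks and kept free of specified pathogens. Control animals drank clean water, and treated animals drank 3% dextran sulfate sodium (DSS), a polysaccharide that injures the colon lining, for 2 days. Each group had 2 libraries, called control 1, control 2, DSS 1 and DSS 2. The labels name no transgene or strain allele that sets the groups apart, and leave unsaid whether each library of a group is its own animal. Every p-value below for DSS against control therefore rests on library-to-library spread, part or all of which could be technical. The p-values of a later comparison between cells of the same library rest on how that difference varied between DSS 1 and DSS 2. The libraries held 101051573 to 109472082 UMIs.

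IgA plasma cells are the end stage of B cell differentiation in mucosal tissue, and the gut holds more of them than any other organ. They lie in the lamina propria and secrete dimeric IgA, in which 2 antibody units are held together by the J chain (Jchain). The epithelium carries this IgA into the lumen, where it coats microbes. To make protein at that rate the cell enlarges its endoplasmic reticulum (ER), and the transcription factor XBP1, product of the ER stress sensor pathway of IRE1, drives much of that enlargement. Each plasma cell uses 1 rearranged heavy chain V gene and 1 light chain V gene, and its descendants inherit both.

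The V genes carry the most distinctive result and are shown first. The most frequent pair of V genes in both DSS libraries was Ighv7-3 with the lambda gene Iglv2. The second in DSS 1 was Ighv3-5 with the kappa gene Igkv6-17. Iglv1 is printed because it is nearly the same as Iglv2. Each line gives the last 200 germline coding bases on GRCm38, 5′ to 3′ along the gene's own strand. Capitals run from the codon of the last cysteine to the end of the segment, which is the germline start of the third complementarity-determining region, the part of the antibody that varies most. Ighv7-3 lies at chr12:114153180-114153379 on the minus strand, Iglv2 at chr16:19260401-19260600 (minus), Iglv1 at chr16:19085017-19085216 (minus), Ighv3-5 at chr12:114262652-114262851 (minus) and Igkv6-17 at chr6:70371794-70371993 (plus). All are exonic coding sequence.
Ighv7-3: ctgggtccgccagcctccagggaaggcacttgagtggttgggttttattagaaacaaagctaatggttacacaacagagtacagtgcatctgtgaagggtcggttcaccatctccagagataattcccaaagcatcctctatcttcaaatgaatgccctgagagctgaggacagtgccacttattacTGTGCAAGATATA
Iglv2: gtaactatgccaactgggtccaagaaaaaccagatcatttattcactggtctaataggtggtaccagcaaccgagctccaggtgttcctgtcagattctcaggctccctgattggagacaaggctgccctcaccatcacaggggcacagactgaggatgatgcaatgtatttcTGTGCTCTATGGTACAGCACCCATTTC
Iglv1: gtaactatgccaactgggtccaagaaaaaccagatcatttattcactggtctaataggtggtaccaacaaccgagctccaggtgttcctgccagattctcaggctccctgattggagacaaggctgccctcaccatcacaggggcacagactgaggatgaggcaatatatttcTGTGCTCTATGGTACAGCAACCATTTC
Ighv3-5: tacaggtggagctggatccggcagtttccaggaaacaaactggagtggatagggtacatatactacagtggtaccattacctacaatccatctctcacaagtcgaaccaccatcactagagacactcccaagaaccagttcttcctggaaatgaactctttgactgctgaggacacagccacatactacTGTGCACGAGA
Igkv6-17: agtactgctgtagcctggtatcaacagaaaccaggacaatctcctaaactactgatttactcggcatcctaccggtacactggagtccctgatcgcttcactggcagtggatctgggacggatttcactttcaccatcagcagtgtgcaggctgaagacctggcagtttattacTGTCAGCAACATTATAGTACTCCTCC
Iglv1 and Iglv2 were identical at 97.5% of these 200 bases, with 5 mismatches, so a read can be hard to place on 1 of them. The counts say nothing of the joined region itself. Cells with the same V pair are therefore not shown to be 1 clone.

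IgA plasma cells numbered 72 and 255 in the controls (1, then 2) and 739 and 380 in the DSS libraries. Their share of filtered cells was 0.772% (exact 95% binomial interval 0.605% to 0.972%) in control 1 and 2.37% (2.09% to 2.68%) in control 2. The DSS 1 share was 6.14% (5.72% to 6.58%), and that of DSS 2 was 3.10% (2.80% to 3.42%). Both DSS libraries lay above both control libraries, at 1.57% ± 1.13 (SD, n = 2) for control and 4.62% ± 2.15 for DSS. The log2 ratio, taken as the mean log2 share of DSS minus the mean log2 share of control, was 1.69. The exact two-sided permutation test gave p = 0.333, the smallest value that 2 against 2 libraries allow. Without control 1 the log2 ratio was 0.88. Of cells with at least 1 UMI of Ptprc, the pan-leukocyte gene, IgA plasma cells made up 2.46%, 5.40%, 6.0% and 5.07% in the same order. There the 2 groups overlapped, the log2 ratio was 0.60 and the exact permutation test gave p = 0.667. Epithelial cells were 5629 and 6504 in the control and 2461 and 4466 in the DSS libraries, so the share of all cells also moves with the epithelial yield. With cells of 2 or more Epcam UMIs left out of the denominator the shares were 1.99%, 6.30%, 7.91% and 5.0%, and control 2 lay above DSS 2.

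**Figure D1:**
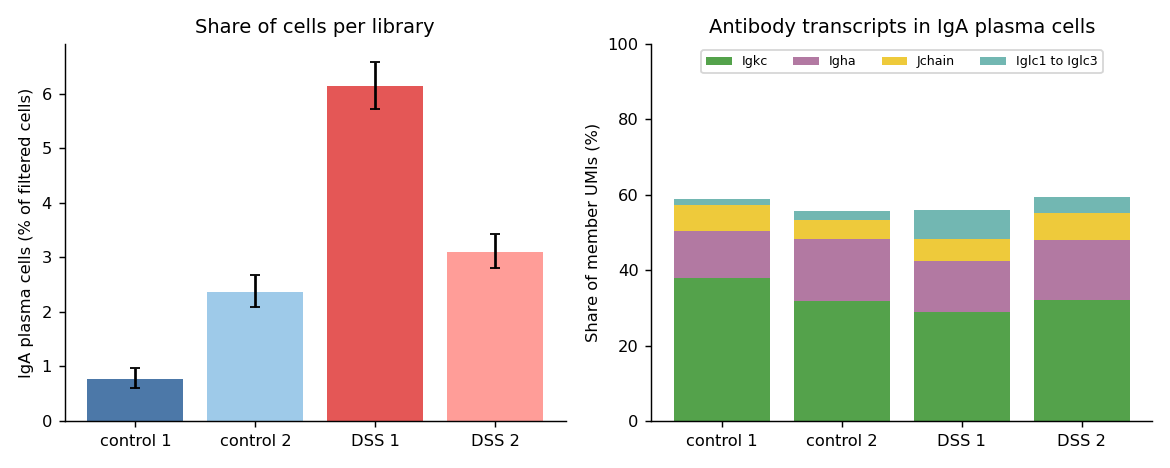
Left: IgA plasma cells as a percent of filtered cells in each library, with exact 95% binomial intervals. Right: percent of the UMIs of IgA plasma cells that belonged to Igkc, Igha, Jchain and the lambda constant genes Iglc1 to Iglc3, per library. DSS 1 is highest at 6.14%, control 1 lowest at 0.772%, and the lambda segment is largest in DSS 1 at 7.74%.

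The limit on Epcam, an epithelial adhesion gene, removed about as many cells as it kept. Cells that met every other condition but had 2 or more Epcam UMIs numbered 69, 196, 932 and 234 in control 1, control 2, DSS 1 and DSS 2. With them the shares were 1.51%, 4.2%, 13.9% and 5.01%. These cells also carried plasma cell genes, for example Xbp1 at 3157, 2835, 3928 and 2505 UMIs per 1000000. Whether they were plasma cells with free epithelial RNA or droplets with 2 cells was not tested. IgM-dominant or IgG-dominant plasma cells were rare, at 5, 2, 6 and 3 cells, too few to compare with the IgA class. No barcode was an IgA plasma cell in 2 libraries.

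Antibody transcripts made up 51.0%, 51.6%, 56.0% and 60.7% of the UMIs of the median cell in control 1, control 2, DSS 1 and DSS 2. Igha, the constant region of the IgA heavy chain, held 12.4% to 16.4% of all UMIs of these cells, Igkc, the kappa light chain, 28.8% to 37.9%, and Jchain 5.23% to 7.06%. Of heavy chain UMIs, 99.6% to 99.8% were Igha in every library. These values chose the cells and are a description. The cells just inside the limit had antibody shares of 15.1% to 15.5% and those just outside 14.8% to 15%. Free antibody RNA was present: T cells, which do not make IgA, had an Igha UMI in 33.6%, 99.6%, 100% and 86.1% of cells, with a median of 0, 6, 12 and 2 UMIs at median depths of 2686, 2346, 3385 and 2571 UMIs. In IgA plasma cells the median Igha count was 632, 1125, 1699 and 1449 at median depths of 4980, 7179, 12983 and 9114 UMIs.

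The cells differed among themselves in how fully they carried the plasma cell profile. Sdc1, the syndecan CD138 that marks plasma cells and was not part of the rule, had a UMI in 21.7% of the 60 cells with an antibody share of 15% to 20%. It had one in 42.2% of the 109 cells at 20% to 30%, in 64.7% of the 354 cells at 30% to 50%, and in 90.9% of the 923 cells above that. Depth rose along the same steps, from a median of 846 UMIs to 1399, 6732 and 11986, so its part in the trend was not tested. Predicted doublets numbered 0, 8, 47 and 22.

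Light chain use differed between libraries. Lambda was the dominant light chain in 2 of 72 cells (2.78%, exact interval 0.338% to 9.68%) in control 1 and in 7.45% (4.55% to 11.4%) of cells in control 2. It was dominant in 21.4% (18.5% to 24.5%) of cells in DSS 1 and in 12.1% (9.0% to 15.8%) in DSS 2. Both DSS libraries lay above both controls, and the intervals of DSS 2 and control 2 overlapped. The V gene pair Ighv7-3/Iglv2, described below, supplied 100 of the 158 lambda cells of DSS 1 and 17 of the 46 of DSS 2, and none in the controls. Without the cells assigned to that pair, lambda was dominant in 58 of 639 cells (9.08%, 6.96% to 11.6%) in DSS 1 and in 29 of 363 (7.99%, 5.42% to 11.3%) in DSS 2, and the intervals of the 4 libraries overlapped. Cells of a library are not independent of each other where they share a V pair, and the intervals cover counting error only.

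The cells carried the markers of plasma cells that the rule did not use. Levels are given from here on as UMIs per 1000000 UMIs outside immunoglobulin genes, summed over the IgA plasma cells of a library, in the order control 1, control 2, DSS 1 and DSS 2, and are not compared between genes. Xbp1 stood at 3490, 3765, 3665 and 3911. That was 24.7, 22.9, 19.5 and 19 times the level in cells with an antibody share under 15%. Prdm1, the repressor BLIMP1 that ends the B cell program, stood at 137, 300, 271 and 346. Irf4, needed for plasma cell fate, was at 279.4, 224, 263 and 223. Pou2af1, a co-activator of antibody genes, was at 369, 392, 322 and 536, and Eaf2, an elongation factor partner, at 701, 541, 660 and 618. The DSS libraries lay within or next to the range of the 2 controls for Irf4 and Eaf2, and the groups overlapped for Xbp1, Prdm1 and Pou2af1 as well. Of 17 transcription factors of plasma cells, 15 were higher than in cells of low antibody share in all 4 libraries, with a median fold of 9.94. Mzb1, a chaperone of antibody assembly and a usual plasma cell marker, was counted at only 10.5, 21.3, 20 and 36.5. Cd38, which resting mouse plasma cells often lack, was at 31.6, 13.0, 16.2 and 23.5, below its level in cells of low antibody share. Antibody genes chose the cells and rise with this profile, so these folds are given with no test.

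The secretory machinery was high in all 4 libraries, and control and DSS values overlapped for most of its genes. Hsp90b1, the ER chaperone GRP94, stood at 6864, 9259, 8116 and 9389. Hspa5, the chaperone BiP that holds unassembled heavy chains, was at 1882, 3743, 2634 and 3154. Control 1 was lowest for both, and control 2 lay within or above the DSS libraries. Txndc5, a disulfide isomerase, was at 2836, 2600, 2630 and 2679, and Creld2, an ER stress protein, at 411, 585, 768 and 682. Sec11c, a signal peptidase subunit, was at 3147, 2667, 2909 and 3016, and Ssr4, part of the translocon, at 3959, 2747, 3357 and 3043. Derl3, which helps move misfolded proteins out of the ER, was at 480, 435, 555 and 534. Edem1, which directs misfolded glycoproteins to degradation, was at 1102, 1447, 1282 and 1275, and Herpud1, a degradation complex protein, at 654, 1239, 976 and 1178.

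As groups, 26 of 27 ER chaperones and folding enzymes were above cells of low antibody share in all 4 libraries (median fold 5.03), as were 27 of 28 genes of translocation, signal peptidase and glycosylation (3.26) and 14 of 15 genes of ER-associated degradation (6.57). ER-to-Golgi transport genes were so in 18 of 23 cases, with a smaller median fold of 1.72. Energy genes went the other way. Of 14 glycolysis genes 12 were below cells of low antibody share in all 4 libraries (median fold 0.408), as were 25 of 34 nuclear genes of oxidative phosphorylation (0.58). The comparison cells were largely epithelial and stromal, and the cell mix of that group moved between libraries.

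Promoters of the ER genes were searched because these genes stood high together. The ER stress element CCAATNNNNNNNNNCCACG, which binds ATF6 and XBP1 with NF-Y, was sought on both strands from 250 bases before to 50 after the RefSeq start site on GRCm38.p6. It occurred in 39 of 32851 promoters (0.119%). It occurred in 7 of the 21 ER chaperone and folding genes that had a promoter entry (Calr, Canx, Creld2, Dnajc3, Hsp90b1, Hspa5 and Pdia6) and in 2 of 12 degradation genes (Derl3 and Syvn1). None of 21 translocation genes or 18 ER-to-Golgi genes held it in this window. The related ER stress element II, ATTGG and CCACG with 1 base between them, occurred in 0.0365% of promoters, among them that of Herpud1. The 250 bases before the start site are printed for 4 genes, with the element in capitals, to show where it lies. They are at chr2:34771840-34772089 (Hspa5, plus strand), chr10:86705445-86705694 (Hsp90b1, minus), chr10:75893148-75893397 (Derl3, plus) and chr8:94386179-94386428 (Herpud1, plus).
Hspa5: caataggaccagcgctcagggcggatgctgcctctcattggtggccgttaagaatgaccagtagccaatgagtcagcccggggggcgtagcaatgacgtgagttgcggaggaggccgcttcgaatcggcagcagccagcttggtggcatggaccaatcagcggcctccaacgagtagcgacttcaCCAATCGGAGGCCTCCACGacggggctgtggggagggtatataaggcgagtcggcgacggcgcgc
Hsp90b1: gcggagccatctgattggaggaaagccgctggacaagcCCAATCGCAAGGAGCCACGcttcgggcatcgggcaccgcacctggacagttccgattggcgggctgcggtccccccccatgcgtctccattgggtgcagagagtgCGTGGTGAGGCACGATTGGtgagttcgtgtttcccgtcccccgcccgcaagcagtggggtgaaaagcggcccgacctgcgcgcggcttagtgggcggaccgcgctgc
Derl3: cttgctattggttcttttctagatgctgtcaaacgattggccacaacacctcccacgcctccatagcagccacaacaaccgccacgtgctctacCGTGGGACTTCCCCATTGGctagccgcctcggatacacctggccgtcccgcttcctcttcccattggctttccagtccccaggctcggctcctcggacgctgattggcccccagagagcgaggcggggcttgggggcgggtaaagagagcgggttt
Herpud1: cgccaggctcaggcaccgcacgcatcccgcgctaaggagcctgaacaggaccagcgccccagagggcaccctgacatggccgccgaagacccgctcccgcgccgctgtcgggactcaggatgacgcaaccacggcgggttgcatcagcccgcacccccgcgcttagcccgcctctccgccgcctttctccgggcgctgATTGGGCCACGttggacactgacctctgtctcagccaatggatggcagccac
The element ended 46 bases before the start site in Hspa5 and 41 in Herpud1, and Hsp90b1 held 2 copies. A match describes these letters and is not shown to be bound here.

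Of 22 genes of survival receptors and apoptosis regulators 15 were above the cells under 15% antibody UMIs in each library and 4 were below, with a median fold of 3.31. Of 14 homing and retention genes 11 were above in each library and 2 below, with a median fold of 9.8. Tnfrsf17, the receptor BCMA through which APRIL keeps plasma cells alive, was at 622, 451, 428 and 462, and Tnfrsf13b, the related receptor TACI, at 359, 354, 410 and 349. Cd28 was at 364, 454, 276 and 521 and Slamf7 at 432, 374, 340 and 492. Ccr10, the receptor for the colon epithelial chemokine CCL28 and a hallmark of IgA plasma cells of the large bowel, was at 580, 602, 409 and 529. Ccr9, the receptor that leads cells to the small bowel, was at only 26.4, 33.2, 19.2 and 63.2. The integrin genes Itga4 and Itgb7, which together bind gut vessels, stood at 353, 470, 285 and 537 and at 274, 271, 180 and 201. Itgb7 and Ccr10 were lower in both DSS libraries than in both controls, but neither passed the test described next (edgeR adjusted p of 1 for both). Thinned to 1000 non-immunoglobulin UMIs per cell, Ccr10 had a UMI in 40.4%, 38.1%, 29.6% and 39.3% of IgA plasma cells and in 0 of the thinned T cells of every library. Unthinned, Ccr10 had a UMI in 44.4%, 64.3%, 65.2% and 59.5% of IgA plasma cells, in 0 T cells of the controls, and in 2 T cells of each DSS library (0.181% and 0.252%). Itgb7 is no such marker: thinned, it had a UMI in 23.4%, 23.4%, 17.1% and 19.5% of IgA plasma cells and in 15%, 20.4%, 17.6% and 16.9% of T cells. Thinning left out 25, 37, 49 and 72 cells of the 4 libraries.

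The 15 genes outside the immunoglobulins with the highest ratio to all other cells were Rnase2b, Prg2, Slpi, Derl3, Ccr10, Tnfrsf17, Cacna1s, Eaf2, Fam214a, Lax1, Gm30211, Pou2af1, A530040E14Rik, Trp53inp1 and Tent5c. Prg2 and Rnase2b, genes of eosinophil granule proteins, were at 153, 146, 144 and 234 and at 132, 167, 104 and 149. Slpi, a secreted protease inhibitor, was at 1444, 1056, 620 and 740. Cacna1s, the voltage-gated calcium channel of skeletal muscle, was at 385, 587, 268 and 757, and Tent5c, a poly(A) polymerase that stabilises antibody mRNA, at 617, 1005, 888 and 1385. Thinned, Slpi had a UMI in 34.0%, 34.4%, 25.5% and 27.3% of IgA plasma cells and in at most 1.33% of T cells, and unthinned in 44.4%, 41.2%, 41.4% and 38.9% of IgA plasma cells. Gm30211 is a long noncoding RNA gene at chr6:70719074-70740554 on the plus strand that overlaps kappa J segments on the same strand, so its reads cannot be told apart from kappa transcripts. Slpi was lower in both DSS libraries than in both controls, with a log2 fold change of -0.78 (SE 0.37) that did not pass (edgeR adjusted p = 1).

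**Figure D2:**
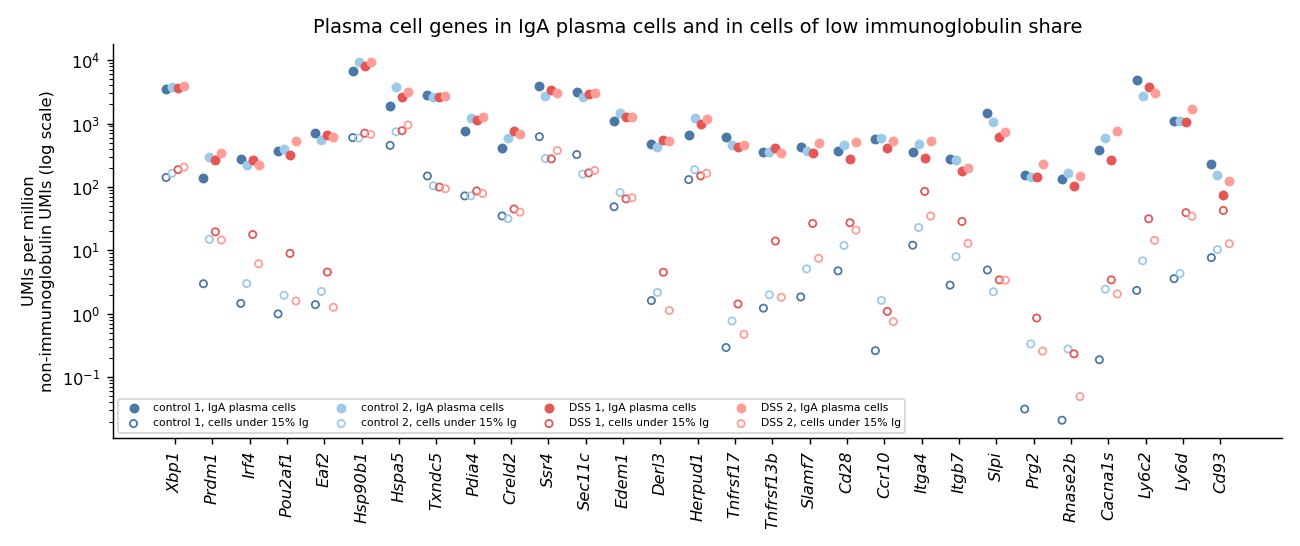
Levels of plasma cell genes in UMIs per 1000000 non-immunoglobulin UMIs (log scale) for each library. Filled points are IgA plasma cells and open points are filtered cells with an antibody share under 15%. Xbp1 lies between 3490 and 3911 in IgA plasma cells, and the filled points lie above the open points for each gene and library drawn.

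The difference between DSS and control in these cells was tested over libraries, with UMIs summed per library and edgeR's quasi-likelihood test, leaving out the genes of the rule. Of 8628 genes tested 1 passed an adjusted p of 0.05, which is 0.0116% of the genes. It was Spink4, a peptide gene of goblet cells, the mucus cells of the epithelium. Spink4 stood at 585 and 571 in the controls and at 51.9 and 69.7 in the DSS libraries. The groups were far apart and alike within, and the log2 fold change was -3.15 (SE 0.33, edgeR adjusted p = 0.0195). T cells, which do not make it, held Spink4 at 326, 657, 35.5 and 38.6, and B cells at 431, 610, 42.1 and 62.3. Epithelial cells held it at 6286, 3151, 2106 and 1206. The drop in Spink4 was thus as large in T cells and B cells as in IgA plasma cells. Without control 1 no gene passed and Spink4 had an edgeR adjusted p of 0.118. Without control 2, 31 genes passed, without DSS 1, 9, and without DSS 2, 33. When the Epcam limit was dropped no gene passed, and the log2 fold change of Spink4 was -0.88. DESeq2 called 6 genes, all lower in DSS, among them the goblet cell genes Agr2, Muc2, Retnlb, Reg4 and Clca3b.

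At an unadjusted p of 0.05, 341 genes (3.95%) passed in edgeR. The median standard error of a log2 fold change was 0.44 and the median distance from a fold change to either end of its unadjusted 95% interval 0.97. At this depth and number of libraries, a smaller change in a gene of that median distance would not reach even an unadjusted p of 0.05. The adjusted threshold asks for a larger change, so changes above 0.97 could also go uncalled. In both DSS libraries above both controls were 762 genes (8.83%), and below both were 1702 genes (19.7%).

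The genes with the largest differences between groups that did not overlap were mostly genes of other cell types. Lower in DSS were Spink4, Retnlb, Agr2, Cyp2c55, Mptx1, Fabp2, Aqp8, Gpx2, Myo15b and Myh14, which are epithelial genes. Agr2, needed for mucin folding, stood at 179, 185, 26.7 and 45.4, and in T cells at 147, 216, 26.1 and 43.9. Fabp2, a fatty acid carrier of absorptive cells, stood at 94.9, 137, 12.2 and 44.6, and in T cells at 59.1, 143, 10.8 and 32. Higher in DSS were Ccl7, Chst1, Adamts1, Myh11, Mylk, Des, Pdgfra, Atf5, Ier3 and Sparcl1, of which Myh11, Mylk and Des are contractile genes and Pdgfra marks fibroblasts. Chst1, a sulfotransferase, was at 5.27, 14.2, 55.6 and 65.7 and in T cells at 4.32, 0, 1.57 and 2.05, so its level was not shared with T cells. Other than Spink4, none of these genes passed in edgeR (adjusted p between 0.0782 for Agr2 and 1), while DESeq2 also called Agr2 and Retnlb.

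Markers of other cell types were summed within IgA plasma cells. Of the 10 epithelial markers all had UMIs in each library, and their summed level was 2135, 2976, 835 and 2011. All 9 tested were lower in DSS by fold change, 5 without overlap, where 19.7% of all genes were lower without overlap. The 6 fibroblast markers summed to 216, 1633, 1088 and 2579, and the 5 markers of smooth muscle to 664, 123, 809 and 418. The 10 myeloid markers summed to 780, 134, 387 and 177 and the 8 T cell markers to 116, 135, 99.3 and 97.3. The part of these genes' RNA in the comparison was not tested beyond the T and B cell values given above.

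Within the plasma cell program, the lists had small medians, beside a median of 0.02 (log2) and 51.9% above 0 over all genes. Of 27 ER chaperones and folding enzymes 25 were higher in DSS with a median log2 fold change of 0.23, and of 28 translocation genes 27 with 0.21. Of 15 degradation genes 14 were higher (0.30). Of 34 nuclear oxidative phosphorylation genes 27 were lower (median -0.18), as were 22 of 27 proliferation genes (-0.34). No gene of these lists passed. The 10 non-overlapping higher ER chaperones of 27 stand against 8.83% of all genes. Dnajb9, an ER co-chaperone, stood at 169, 190, 238 and 315 and Creld2 at the levels given above. For Mki67, a proliferation gene, levels were 94.9, 238, 91.6 and 101. Thinned, Mki67 had a UMI in 6.38%, 14.7%, 5.94% and 6.17% of IgA plasma cells and in 2.45% to 3.17% of T cells, while Top2a, expressed in dividing cells, had one in 2.13%, 7.34%, 1.88% and 2.60% and in 2.81% to 4.56% of T cells. Unthinned, Mki67 had a UMI in 12.5%, 28.2%, 22.9% and 15% of IgA plasma cells and Top2a in 4.17%, 14.5%, 7.98% and 7.37%.

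The genes downstream of PERK and ATF4, the arm of the stress response that raises amino acid synthesis, had the largest median among the lists of secretion and ER stress. Of 17 listed genes 14 were tested, 13 were higher in DSS and 7 did not overlap, where 8.83% of all genes were higher without overlap, and the median was 0.77. Atf5, a transcription factor, stood at 5.27, 40.3, 103 and 74.6. Asns, asparagine synthetase, stood at 58.0, 35.5, 88.8 and 86.7. Psat1, an enzyme of serine synthesis, stood at 5.27, 8.29, 19.7 and 25.1, and Chac1, a glutathione-degrading enzyme, at 0, 8.29, 19.2 and 51.1. Both DSS libraries lay above both controls for each of these, and none passed (edgeR adjusted p of 0.734 for Atf5, 0.959 for Asns, 0.859 for Psat1 and 0.657 for Chac1). Atf4 itself was at 337, 558, 341 and 802, overlapping. Control 1 gave 1 UMI of Atf5 and Psat1, so its values are coarse. The list's median was 0.60 without the cells of the Ighv7-3/Iglv2 pair, 0.49 with the Epcam limit dropped and 1.15 at an antibody share of at least 50%, all chosen after seeing the data.

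Immune response genes varied by list. Of 16 type I interferon response genes tested 14 were higher (median 0.60), for example Isg20 at 116, 116, 185 and 146. The summed level of the 37 listed genes was 2920, 2123, 2034 and 2648, so the groups overlapped and the sum did not rise with DSS. Of 16 interferon gamma response genes tested 13 were higher (0.71), and that list summed to 759, 1305, 652 and 1594, which also overlapped. Of 17 NF-kB pathway genes 14 were lower (-0.52). Nfkbia, the inhibitor of NF-kB, was at 1065, 1634, 506 and 769, and Relb at 79.1, 80.5, 32.7 and 54.3. None of these passed. MHC class II genes were lower in 6 of 7 tested cases, and Cd74, their chaperone, was at 6241, 5631, 5937 and 5393.

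**Figure D3:**
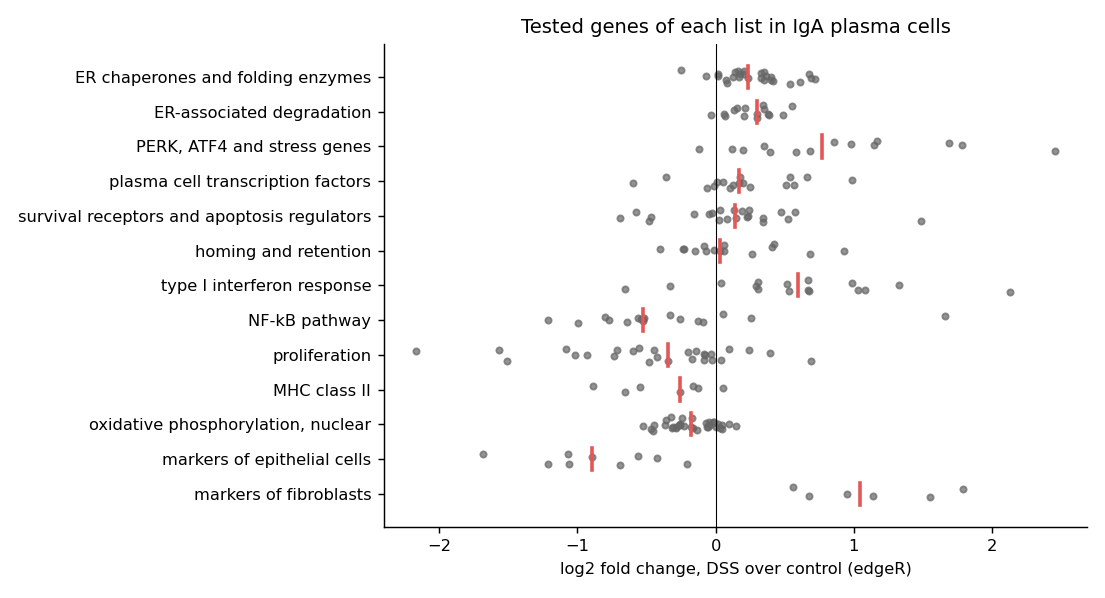
Log2 fold change of DSS over control (edgeR) for each tested gene of 13 lists in IgA plasma cells, with the median as a red line. The list of PERK, ATF4 and stress genes has a median of 0.77 and that of epithelial markers -0.90, and no gene drawn passed an adjusted p of 0.05.

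V gene pairs were assigned in cells where the most counted heavy and the most counted light V gene each had at least 3 UMIs and at least 2 times the next. This gave 28, 137, 501 and 225 paired cells in control 1, control 2, DSS 1 and DSS 2, with 24, 66, 122 and 98 distinct pairs. The largest pair in control 1 was Ighv6-3/Igkv4-55 with 4 cells (14.3%, exact interval 4.03% to 32.7%), and in control 2 Ighv1-5/Igkv1-117 with 18 cells (13.1%, 7.98% to 20%). In DSS 1 it was Ighv7-3/Iglv2 with 100 cells (20%, 16.6% to 23.7%), and in DSS 2 the same pair with 17 cells (7.56%, 4.46% to 11.8%). Neither control held a cell of the pair, and 0 of 28 and 0 of 137 paired cells allow shares of up to 10.7% and 2.19%. With the top V gene at 5 times the next, Ighv1-47/Igkv10-94 led in DSS 2 (6.17%).

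In DSS 1 the second pair, Ighv3-5/Igkv6-17, had 53 cells, Ighv1-50/Igkv1-135 had 33 and Ighv9-4/Igkv6-17 had 28. Its 5 largest pairs held 47.9% of paired cells, against 32.1%, 39.4% and 24.9% in control 1, control 2 and DSS 2. The chance that 2 randomly drawn paired cells shared a pair was 1.85%, 3.68%, 6.57% and 1.84%. DSS 2, the other treated library, lay close to control 1, so this measure did not follow the treatment. Of all pairs, 234 were found in 1 library, 29 in 2 and 6 in 3. Heavy gene Ighv7-3 was assigned in 2, 2, 192 and 29 cells, and light gene Iglv1 in 10.3%, 8.64%, 8.84% and 8.99% of cells with a light gene. Among the cells with 2 or more Epcam UMIs, DSS 1 had 168 of 648 paired cells with Ighv3-5/Igkv6-17 and 149 with Ighv7-3/Iglv2, and DSS 2 had 21 of 161 with Ighv7-3/Iglv2. V genes are related to the rule, and these counts are given with no test.

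**Figure D4:**
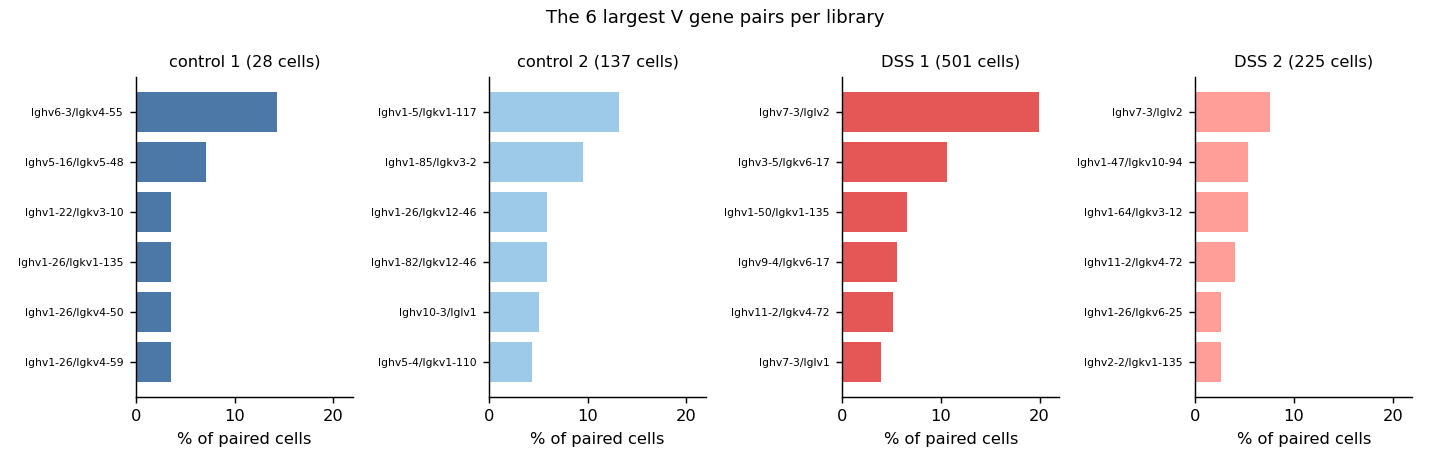
The 6 most frequent pairs of heavy and light V genes in each library, as a percent of the IgA plasma cells with both assigned (28, 137, 501 and 225 cells). Ighv7-3/Iglv2 leads in DSS 1 at 20% and in DSS 2 at 7.56% and is not among the pairs of the controls.

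Cells of the Ighv7-3/Iglv2 pair were compared with the other paired IgA plasma cells of the same library, 100 against 401 in DSS 1 and 17 against 208 in DSS 2. The comparison was added after the data were seen. The pair was picked for its size, and genes of the immunoglobulin loci were left out. It was fitted in edgeR with library as a block, which leaves 1 residual degree of freedom over 4 sums. Of 7300 genes 113 passed (1.55%), 63 higher (0.863%) and 50 lower (0.685%). In both libraries the direction was the same for 106 of the 113. The fit that called these genes used the same 2 libraries and favours genes whose directions agree, so this count is no replication. Without the library block 2 genes passed, with DESeq2 12, and among cells with 2 or more Epcam UMIs 9 of 108 tested passed and 102 had the same direction. Those last cells come from the same libraries and are no separate replicates. Against the other lambda cells alone, 33 in DSS 1 and 16 in DSS 2, 2244 genes were tested and Herpud1 (higher) and Apoe (lower) passed. That comparison uses the same sums for the pair. In DSS 1, 20 paired cells were assigned to Ighv7-3/Iglv1, which has the same heavy V gene and a light V gene nearly the same as Iglv2. Such cells with dominant lambda were among the 33. The comparison therefore does not set the pair against lambda cells of unrelated V genes.

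Apart from the kappa locus gene Gm30211, Slpi had the smallest p among the genes that fell. It stood at 118 against 850 in DSS 1 and at 15.9 against 744 in DSS 2, the last from 1 UMI. The pair's cells were below the others in both libraries (log2 fold change -3.13, SE 0.28, edgeR adjusted p = 6.72e-12). Against other lambda cells alone the values were 118 against 215 and 15.9 against 192, and Slpi did not pass (log2 fold change -1.14, edgeR adjusted p = 0.58). Cells with 2 or more Epcam UMIs gave 249 against 634 and 53.9 against 631, which did not pass either (log2 fold change -2.04, edgeR adjusted p = 0.2). Of other pairs in DSS 1, Ighv3-5/Igkv6-17 cells had Slpi at 588, Ighv9-4/Igkv6-17 cells at 1923 and Ighv11-2/Igkv4-72 cells at 2192, while Ighv7-3/Iglv1 and Ighv7-3/Igkv3-1 cells were at 185 and 94.8. In DSS 2 the pair Ighv1-47/Igkv10-94 was also low at 105. Slpi thus varied widely between V pairs, and low Slpi was also seen in other pairs.

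Genes of the amino acid response rose in the pair. Of the 15 tested genes of the PERK and ATF4 list 14 were higher and 8 passed (Atf5, Trib3, Asns, Psat1, Chac1, Sesn2, Mthfd2 and Phgdh). Of all genes 0.863% passed as higher. The number of list genes that passed depended on the fit. It was 0 without the library block, 1 with DESeq2 and 1 among cells with 2 or more Epcam UMIs, with 14 of 15 higher in each. The median log2 fold change was 0.97, against -0.02 over all genes, of which 48% were above 0. Asns stood at 230 against 67.8 in DSS 1 and at 238 against 87.6 in DSS 2 (log2 fold change 1.66, SE 0.27, edgeR adjusted p = 3.34e-05). Atf5 stood at 277 against 62.0 and at 333 against 62.1 (2.24, SE 0.26, edgeR adjusted p = 2.65e-08). Phgdh, the first enzyme of serine synthesis, was at 442 against 207 and at 286 against 175. Slc7a3, a transporter of cationic amino acids, was at 57.6 against 3.12 and at 79.4 against 3.65. The Ighv7-3/Iglv1 cells of DSS 1, which share the heavy V gene, had Asns at 242 and Atf5 at 199, and the Ighv3-5/Igkv6-17 cells had 39.0 and 48.7. Against other lambda cells alone, 7 of 10 tested genes of the list were higher, with a median of 0.24.

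The CARE core TGATGNAA, the letters that C/EBP and ATF factors recognise in amino acid response genes, was sought in the same promoter windows. It occurred in 3.97% of 32851 promoters and in 6 of the 17 genes of the list (Asns, Atf3, Chac1, Slc7a11, Trib3 and Vldlr). The promoters of 2 genes that were higher in the pair are printed with the core in capitals, at chr6:7693210-7693459 on the minus strand for Asns and chr2:119350992-119351241 on the plus strand for Chac1.
Asns: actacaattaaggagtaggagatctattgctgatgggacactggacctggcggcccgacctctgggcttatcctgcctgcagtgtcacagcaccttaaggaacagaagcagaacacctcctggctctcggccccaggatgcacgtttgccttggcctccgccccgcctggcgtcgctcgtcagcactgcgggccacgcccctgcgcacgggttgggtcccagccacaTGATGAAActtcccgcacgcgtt
Chac1: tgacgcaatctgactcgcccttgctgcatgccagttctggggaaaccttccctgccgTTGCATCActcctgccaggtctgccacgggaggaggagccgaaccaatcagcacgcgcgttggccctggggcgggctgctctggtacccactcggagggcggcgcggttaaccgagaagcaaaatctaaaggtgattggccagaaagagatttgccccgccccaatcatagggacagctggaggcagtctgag
Chac1 stood at 61.8 against 7.59 in DSS 1 but at 47.6 against 47.5 in DSS 2, where the pair gave 3 UMIs. The core ends 15 bases before the start site in Asns and 185 in Chac1. These letters are not shown to be bound here.

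Of 27 ER chaperones 24 were higher in the pair by fold change and 3 passed, namely Calr, Ero1l and Sdf2l1, where 0.863% of all genes passed as higher. The list's median log2 fold change was 0.49. Against other lambda cells alone 17 of 25 were higher, none passed and the median was 0.03. Hspa5 was then at 3977 against 4735 and at 3969 against 4775. Sdf2l1, a partner of the chaperone network, was at 1074 against 472 and at 937 against 536. Ero1l, an oxidase that restores disulfide isomerases, was at 222 against 72.3 and at 175 against 76.7. Of 15 degradation genes 13 were higher and 3 passed, and against other lambda cells alone 11 of 14 were higher and Herpud1 passed. Herpud1 was at 1835 against 784 and at 2620 against 1130 (log2 fold change 1.21, SE 0.20, edgeR adjusted p = 7.94e-05). Of 24 proteasome genes 24 were higher and none passed. Of 34 nuclear oxidative phosphorylation genes 28 were higher, and of 28 ribosomal protein genes 23, with medians of 0.13 and 0.09. Of 17 plasma cell transcription factors 6 were higher. A high count of higher genes was thus not particular to the ER lists. Xbp1 was lower in DSS 1, at 2777 against 3922, and level in DSS 2, at 4049 against 3871, and did not pass (edgeR adjusted p = 0.836). Hspa5 was at 3977 against 2560 and at 3969 against 3142 and did not pass (edgeR adjusted p = 0.426). The metallothioneins Mt1 and Mt2, which bind zinc, were higher, Mt1 at 1704 against 763 and at 6589 against 2494.

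Other genes that rose in the pair were Mst1, Gm42047, Gm20091, Cpne2, Fgl2, Mpzl2, Il5ra, Cdkn2a and Cdkn2b. Fgl2, a secreted fibrinogen-like protein, was at 295 against 91.0 and at 381 against 122. Il5ra, the receptor chain for interleukin-5, was at 149 against 44.2 and at 206 against 77.9. In DSS 1 the Ighv7-3/Iglv1 and Ighv7-3/Igkv3-1 cells had Il5ra at 135 and 147.5 and Fgl2 at 185 and 221. Ighv3-5/Igkv6-17 cells there had 61.7 and 97.4. In DSS 2 the Ighv1-64/Igkv3-12 cells had Il5ra at 243 and Fgl2 at 0, and the Ighv11-2/Igkv4-72 cells 43.2 and 238. Both genes were thus also high in some other pairs. Cdkn2a, which encodes inhibitors of the cell cycle, was at 124 against 21.4 and at 31.8 against 13.4, the DSS 2 value from 2 UMIs.

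Genes that fell with Slpi were Gm30211, Ly6k, Fcer1g, Cd93, Fut8, Ly6a, Ccr9, Samsn1, Ptprcap, Tbxa2r, Meg3 and A530030E21Rik, with Apoe, Lyz2, C1qb and C1qc of macrophages and Gsn, Col3a1, Col1a2 and Dcn of stromal cells. The stromal fall did not hold in every set. Among DSS 2 cells with 2 or more Epcam UMIs, Col3a1 was at 712 against 464 and Gsn at 1604 against 718.5. Against other lambda cells in DSS 1 they were at 150 against 55.9 and at 262.5 against 232. In the other DSS library of each set both were lower in the pair. Cd93, needed for plasma cells to persist, was at 21.1 against 94.6 and at 15.9 against 133. The pair's values came from 15 UMIs in DSS 1 and 1 UMI in DSS 2. Low Cd93 was also seen in other pairs of DSS 1. Ighv7-3/Iglv1 cells were at 35.6 from 5 UMIs and Ighv6-6/Igkv4-68 cells at 22.8 from 1 UMI, while Ighv3-5/Igkv6-17 cells were at 97.4. Fut8, which adds core fucose to antibody glycans, was at 99.7 against 266 and at 95.3 against 184. Gm30211 stood at 4.21 against 380 in DSS 1, from 3 UMIs, and at 0 against 534 in DSS 2. It overlaps kappa J segments, and the pair uses a lambda gene. In DSS 1 the Ighv3-5/Igkv6-17 cells gave 150 of the 339 Lyz2 UMIs of the other cells, at a level of 487, while the Ighv7-3/Iglv2 cells had 39.3 and the Ighv1-50/Igkv1-135 and Ighv9-4/Igkv6-17 cells 42.9 and 40.2. Ly6k came mostly from another pair, Ighv7-3/Igkv3-1, whose cells had 1707 in DSS 1. The Ighv7-3/Iglv2 cells gave 1 Ccr9 UMI in DSS 1 and 0 in DSS 2. In DSS 1 the Ighv3-5/Igkv6-17, Ighv1-50/Igkv1-135 and Ighv9-4/Igkv6-17 cells also gave 0, and the Ighv7-3/Igkv3-1 cells gave 7. Low Ccr9 was thus also seen in other pairs.

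Markers of macrophages and fibroblasts were lower in the pair. The 10 myeloid markers summed to 136 against 399 in DSS 1 and to 47.6 against 239 in DSS 2, where C1qa, C1qb, C1qc, Csf1r, Itgam, Adgre1, S100a8 and S100a9 were at 0. The 6 fibroblast markers summed to 667 against 934 and 222 against 2912. The 9 epithelial markers outside the rule summed to 508 against 652 and 1413 against 1452. The 9 B cell markers outside the rule and the immunoglobulin genes were higher in the pair, at 10356 against 6408 and 9210 against 6647. Of these, 3 were tested and none passed. The 10 plasma cell markers outside the rule summed to 5412 against 5841 in DSS 1 and to 7749 against 6175 in DSS 2. The 8 T cell markers summed to 195 against 63.8 and 206 against 104, and of the 2 tested 1 passed as higher. Cd3d, Cd3e, Cd3g, Trbc1, Trbc2 and Lat were at 0 in the pair in DSS 2. Smooth muscle markers went higher in DSS 1 (955 against 544) and lower in DSS 2 (31.8 against 251). Of these Des passed as higher (log2 fold change 1.72, edgeR adjusted p = 0.00873), with 1 UMI in the pair in DSS 2. The part of such RNA in the fall of Apoe, Lyz2, Fcer1g, Gsn and the collagen genes was not tested. Median depth was 13822 against 13312 UMIs in DSS 1 and 10215 against 9938 in DSS 2, and the antibody share 50.4% against 58.4% and 63.2% against 63.7%. Predicted doublets were 6.0% against 5.99% and 0% against 5.29%.

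**Figure D5:**
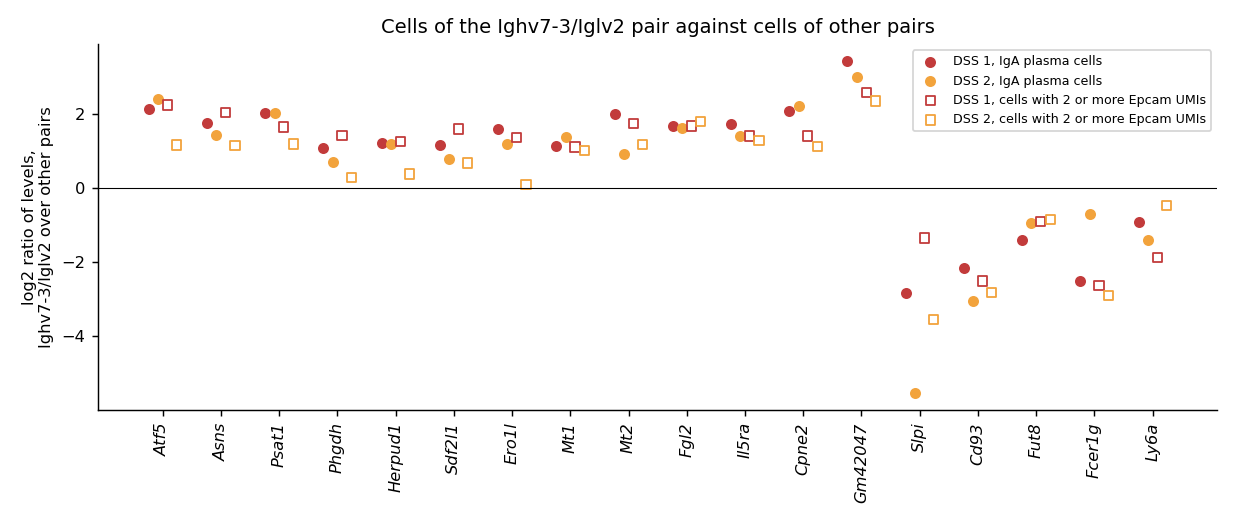
Log2 ratio of the level in Ighv7-3/Iglv2 cells to that in cells of other V pairs, for 18 genes. Circles are IgA plasma cells and squares are cells with the same antibody rule but 2 or more Epcam UMIs, in DSS 1 and DSS 2. Atf5, Asns and Psat1 lie above 0 in all 4 sets, and Slpi, Cd93 and Fut8 lie below 0 in all 4. The DSS 2 circles of Slpi and Cd93 each rest on 1 UMI of the pair.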

How the data were processed

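Single-cell libraries of mouse mid-colon, 2 control and 2 DSS, were deposited as counts of UMIs per gene and barcode, the authors' whole-number counts as the files hold them. Per the submitters' processing notes, reads were handled with Cell Ranger 6.1.1 on GRCm38. Kit labels name version 3 capture and version 2 library reagents, and which holds is not given in the sources used here. Groups and library numbers come from the labels.

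Cells needed at least 500 UMIs, 250 genes and at most 25% mitochondrial UMIs, which kept 44356 of 49851 barcodes. IgA plasma cells followed the rule in the report. Doublets were predicted with Scrublet (scanpy 1.11.5). UMIs were summed per library and tested with edgeR 4.0.16 (TMM, filterByExpr, quasi-likelihood F test, Benjamini-Hochberg at 0.05, R 4.3.3), and DESeq2 1.42.0 was an alternative. The pipeline was tested on simulated data. Levels are UMIs per 1000000 non-immunoglobulin UMIs. All 55450 gene identifiers matched GENCODE M21, and promoters are from RefSeq. The named genes are list members by level or call, calls (or the 10 largest non-overlapping changes), the 15 leading genes and the most used V genes. The members, gene lists and tests were chosen with earlier results of these data known. Intervals cover counting error only.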

Additional observations from a re-analysis of the deposited data

How the results depend on the processing

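The number of genes called between DSS and control, 1 in edgeR, depended on the fit. It was 6 with DESeq2, 58 without a filter on low counts, 128 with the replicate block, 2 with immunoglobulin genes kept and 0 without the Epcam limit (chosen after seeing the data). Leaving out 1 library at a time gave 0 to 33. Agr2, Retnlb, Mptx1 and Ccl7 were among the genes called with the block. The cause was not tested. It stayed at 1 with RLE scaling, without doublets, at antibody shares of 30% or 50%, at 1000 UMIs and without the cells of the Ighv7-3/Iglv2 pair, the 50% and pair settings being added later. The labels give no sign that equal library numbers mark paired animals, and the deviations of equal numbers correlated at 0.316 across genes.

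The log2 ratio of shares kept its direction in each alternative, from 0.60 to 1.84, and leaving out 1 library gave 0.88 to 2.50. With the replicate block the exact permutation p was 0.5.

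For the Ighv7-3/Iglv2 pair, 113 genes passed. Without the replicate block 2 passed, with DESeq2 12, in cells with 2 or more Epcam UMIs 27, against other lambda cells 2 and at 10 UMIs per V gene 31. The largest pair's share in DSS 2 was 12.7% at 10 UMIs per V gene. The comparison of IgA with IgM or IgG cells, and the setting that leaves out cells with other cells' markers, were not run, since too few cells remained. Control 1, with 72 cells, limits the comparison of DSS with control.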

Other observations

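Ly6c2, a surface protein of mouse plasma cells, stood at 4934, 2696, 3826 and 3029 UMIs per 1000000 in control 1, control 2, DSS 1 and DSS 2, and Ly6d at 1118, 1109, 1060 and 1687. Il5ra, the interleukin-5 receptor chain, stood at 5.27, 36.7, 60.4 and 79.4, with both DSS libraries above both controls (edgeR, not past an adjusted p of 0.05). In control 1 only 1 of 72 cells had an Il5ra UMI, so that value is coarse. Il5ra was also higher in Ighv7-3/Iglv2 cells, as given above. These cells gave 106 Il5ra UMIs in DSS 1 and 13 in DSS 2, and no control cell was assigned to the pair. The part of the pair in the DSS levels was not tested. Bst2, an interferon-inducible membrane protein, went the other way at 1945, 1249, 846 and 1064, while Ifi27l2a was at 490, 275, 469 and 664.

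V pairs of DSS 1 differed in Hspa5, the ER chaperone BiP. It was at 3977 in the 100 Ighv7-3/Iglv2 cells, 5878 in the 20 Ighv7-3/Iglv1 cells, 5135 in the 9 Ighv7-3/Igkv10-94 cells and 6441 in the 9 Ighv6-6/Igkv4-68 cells. It was at 1383 in the 53 Ighv3-5/Igkv6-17 cells, 1225 in the 26 Ighv11-2/Igkv4-72 cells and 939 in the 11 Ighv9-4/Igkv10-96 cells. Ighv3-5/Igkv6-17 cells with 2 or more Epcam UMIs, 168 in number, had Hspa5 at 1239. Each value is 1 sum over cells of 1 library, with no replicate and no test.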
